A study of Homo sapiens with 18 samples.

Results

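HOXD genes were examined in NIKS, an immortalized but otherwise normal human keratinocyte line that is long established, with SP100 intact or knocked out. Members were all genes whose symbol is HOXD followed by a number. The name table holds 9 such symbols, and 6 of them were among the 16472 genes of the expression table: HOXD11, HOXD10, HOXD9, HOXD8, HOXD4 and HOXD3. Of these 6, 4 reached the level set for testing, which was 1 RPKM or more in 3 or more libraries. RPKM corrects a gene's reads for its length and for library size, so levels can be set side by side between genes. HOXD13, HOXD12 and HOXD1 were not analysed here. The cluster was chosen by its RPKM values in knockout against wild-type cells, where HOXD10 and HOXD11 were known to be higher. Differences between knockout and wild type are therefore described for the HOXD genes without a test, and the tests below concern interferon and other genes.

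The 18 libraries formed 6 groups of 3 biological replicates. Wild-type cells (WT, the line Vec2) and SP100 knockout cells (KO, the line KO5) were each left untreated (0 h) or treated for 12 or 48 h with 25 ng/mL of human interferon alpha 2a. All cells were grown on irradiated J2/3T3 mouse fibroblast feeders, and poly(A) RNA was sequenced from stranded libraries. Each genotype is 1 line, so genotype and line cannot be told apart. Untreated libraries at the later times were not analysed here, so interferon cannot be told apart from the hours spent in culture.

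HOX genes encode homeodomain transcription factors and stand in clusters in which the order of the genes along the chromosome matches the order of their expression along the body axis. Polycomb complexes hold silent stretches of a cluster repressed, Trithorax-type complexes and retinoic acid act in the opening of others, and PBX and MEIS proteins bind DNA together with HOX proteins. Skin cells keep a HOX pattern that reflects the body site they came from. SP100 is a constituent of PML nuclear bodies and is itself induced by interferon.

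The promoters of the 3 highest members are shown because these genes share a direction in the knockout cells while differing in size. Each run is the 250 bases before the RefSeq gene start on GRCh38.p14, plus strand of chromosome 2. The table itself was built on hg19, per the submitters' processing notes, so these positions belong to the sequences only. Capitals mark CACGTG (an E-box) and ATTGG, the reverse complement of CCAAT. The intervals are chr2:176107030-176107279 for HOXD11, chr2:176116528-176116777 for HOXD10 and chr2:176129455-176129704 for HOXD8.
HOXD11: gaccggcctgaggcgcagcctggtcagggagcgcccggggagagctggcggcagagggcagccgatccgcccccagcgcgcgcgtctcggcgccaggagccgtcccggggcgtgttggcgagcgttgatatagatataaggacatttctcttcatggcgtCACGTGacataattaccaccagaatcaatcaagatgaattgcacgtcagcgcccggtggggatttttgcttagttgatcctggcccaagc
HOXD10: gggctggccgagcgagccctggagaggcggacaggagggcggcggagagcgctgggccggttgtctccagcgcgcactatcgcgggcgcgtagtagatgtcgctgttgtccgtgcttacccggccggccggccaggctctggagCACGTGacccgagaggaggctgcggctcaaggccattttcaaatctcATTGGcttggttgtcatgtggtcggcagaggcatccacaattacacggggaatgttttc
HOXD8: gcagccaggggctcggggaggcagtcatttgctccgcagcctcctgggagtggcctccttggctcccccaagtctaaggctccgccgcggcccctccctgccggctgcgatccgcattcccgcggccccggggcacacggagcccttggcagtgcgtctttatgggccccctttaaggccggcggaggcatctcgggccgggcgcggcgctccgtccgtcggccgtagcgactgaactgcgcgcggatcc

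CACGTG began 90 bases before the start of HOXD11 and 106 bases before that of HOXD10, and was not among the letters of the HOXD8 window. This motif was chosen after the sequences were seen. On either strand it was in 5 of the 8 HOXD promoters that the RefSeq table holds and in 6.34% of all 35116 promoters. CCAAT was in 6 of 8 and in 32.0% of all. TATAAA was in 1 of 8 and in 10.7% of all. The core of the interferon-stimulated response element, searched as a pair of GAAA blocks with any 2 bases between them, was in 0 of 8 and in 3.02% of all. The 3 windows were rich in G and C, at 61.6% for HOXD11, 64.0% for HOXD10 and 72.4% for HOXD8 against a median of 58.0% over all promoters. HOXD9 has no entry in the promoter table.

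Libraries of a group correlated at r of 0.985 to 0.989 across tested genes. SP100 RPKM in KO cells stood at 46.9% to 55.9% of the WT mean at the same time, so the transcript was reduced in every KO group and not lost. Read totals are unknown. Depth relative to the mean library, recovered from the steps between low values, was 0.848 to 1.17 in WT and 0.891 to 1.26 in KO libraries. All 8 keratinocyte markers were tested, and their summed RPKM was 19418 to 22121 in WT and 18732 to 22364 in KO libraries. Of 10 fibroblast markers 3 had a row, with summed RPKM of 5.85 to 8.93 in WT and 5.84 to 8.31 in KO. Of 6 melanocyte markers 2 had a row, summing to 1.21 to 2.34 in WT and 0.98 to 1.86 in KO. Of 8 endothelial and immune markers 1 had a row, at 1.89 to 5.77 in WT and 1.25 to 6.64 in KO. Pooled over the times, these ranges overlapped between the genotypes for each list. At single times, the endothelial and immune gene was separate at 12 h (2.11 to 2.56 RPKM in WT, 1.25 to 1.65 in KO) and the melanocyte sum at 48 h (1.43 to 2.1 in WT, 1.02 to 1.41 in KO). Among the keratinocyte markers, the desmosomal cadherin DSG3 was higher in KO at 0 h (log2 difference 0.29, limma adjusted p = 0.00293) and the hemidesmosomal collagen COL17A1 lower (-0.20, adjusted p = 0.00689), and both passed again at 48 h; both were named after their values were seen. Their part in the HOXD values was not tested.

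HOXD10 and HOXD11, neighbours at the 5′ side of the cluster and best known for patterning the limb and lower trunk, stood higher in KO than in WT cells at every time. HOXD8 stood higher by less. HOXD9, which lies between HOXD10 and HOXD8, did not stand higher at any time. HOXD4 and HOXD3, on the 3′ side, were barely detected.

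HOXD11 (ENSG00000128713) was at 4.28, 4.48 and 4.24 RPKM in untreated WT cells and at 7.11, 9.38 and 8.4 RPKM in untreated KO cells. After 12 h in interferon it was at 3.46, 2.87 and 3.39 RPKM in WT and at 6.33, 6.33 and 6.52 RPKM in KO. After 48 h it was at 3.53, 3.84 and 4.12 RPKM in WT and at 7.21, 6.68 and 7.88 RPKM in KO. The lowest KO library lay above the highest WT library even when the times were pooled. Mean RPKM was 1.91 times the WT mean untreated, 1.97 times at 12 h and 1.89 times at 48 h. On the log2(RPKM + 1) scale, which understates changes of low genes, the difference was 0.79, 0.80 and 0.77 (SE 0.0892 at each time). Ordered by mean level, the groups ran KO 0 h, KO 48 h, KO 12 h, WT 0 h, WT 48 h and WT 12 h, and of these neighbours only KO 0 h and KO 48 h overlapped.

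HOXD10 (ENSG00000128710) was at 7.9, 6.95 and 8.37 RPKM in untreated WT cells and at 14.56, 13.73 and 12.17 RPKM in untreated KO cells. At 12 h it was at 6.21, 5.75 and 7.1 RPKM in WT and at 10.83, 11.14 and 10.81 RPKM in KO. At 48 h it was at 7.58, 7.53 and 5.74 RPKM in WT and at 13.02, 12.57 and 12.47 RPKM in KO. Here too all 9 KO libraries lay above all 9 WT libraries, which held for 0.55% of the 13280 genes tested. The KO mean exceeded that of WT by factors of 1.74, 1.72 and 1.83 at 0, 12 and 48 h. The log2 difference was 0.73, 0.70 and 0.79 (SE 0.0957). The group order matched that of HOXD11, but the 3 WT groups overlapped with each other, as did KO 0 h with KO 48 h.

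HOXD8 (ENSG00000175879), the most abundant member, was at 13.13, 11.35 and 11.01 RPKM in untreated WT cells and at 16.43, 14.68 and 14.24 RPKM in untreated KO cells. At 12 h it was at 8.04, 8.7 and 9.64 RPKM in WT and at 11.17, 11.28 and 11.18 RPKM in KO. At 48 h it was at 10.2, 10.91 and 12.32 RPKM in WT and at 13.38, 12.44 and 12.36 RPKM in KO. The groups did not overlap at any of the 3 times, though at 48 h the highest WT and the lowest KO library were 12.32 and 12.36 RPKM. The log2 difference was 0.33, 0.32 and 0.18 (SE 0.0806). With HOXD10 and HOXD11, HOXD8 made 3 of 4 tested members whose KO libraries stood above WT at all 3 times, against 2.43% of genes tested. Because this contrast chose the members, nothing is read from that count.

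HOXD9 (ENSG00000128709) was at 2.17, 2.06 and 2.69 RPKM in untreated WT cells and at 1.27, 1.6 and 1.67 RPKM in untreated KO cells. At 12 h it was at 2.37, 1.69 and 1.48 RPKM in WT and at 1.8, 2.06 and 1.54 RPKM in KO. At 48 h it was at 2.13, 3.22 and 2.41 RPKM in WT and at 1.57, 1.41 and 2.27 RPKM in KO. The KO libraries lay below WT without overlap at 0 h, as in 8.85% of genes tested, and the groups overlapped at 12 and 48 h. The log2 difference was -0.39, -0.02 and -0.38 (SE 0.151). All neighbours in the order of its 6 group means overlapped.

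HOXD4 (ENSG00000170166) never passed 0.6 RPKM and HOXD3 (ENSG00000128652) never passed 0.73 RPKM, so neither was tested. HOXD4 averaged 0.0833 ± 0.0513, 0.247 ± 0.136 and 0.223 ± 0.110 RPKM in WT at 0, 12 and 48 h (SD, n = 3). In KO it averaged 0.267 ± 0.127, 0.39 ± 0.0819 and 0.48 ± 0.12 RPKM (SD, n = 3). Its groups were separate at 48 h, at 0.1 to 0.31 RPKM in WT and 0.36 to 0.6 RPKM in KO, and overlapped at 0 and 12 h. HOXD3 averaged 0.14, 0.393 and 0.28 RPKM in WT and 0.267, 0.513 and 0.363 RPKM in KO, and its groups overlapped at every time. In GENCODE release 29, 80.5% of the exon bases of HOXD4 and 62.2% of those of HOXD3 are shared with another gene model on the same strand, AC009336.2. Reads in these genes are therefore uncertain.

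**Figure D1:**
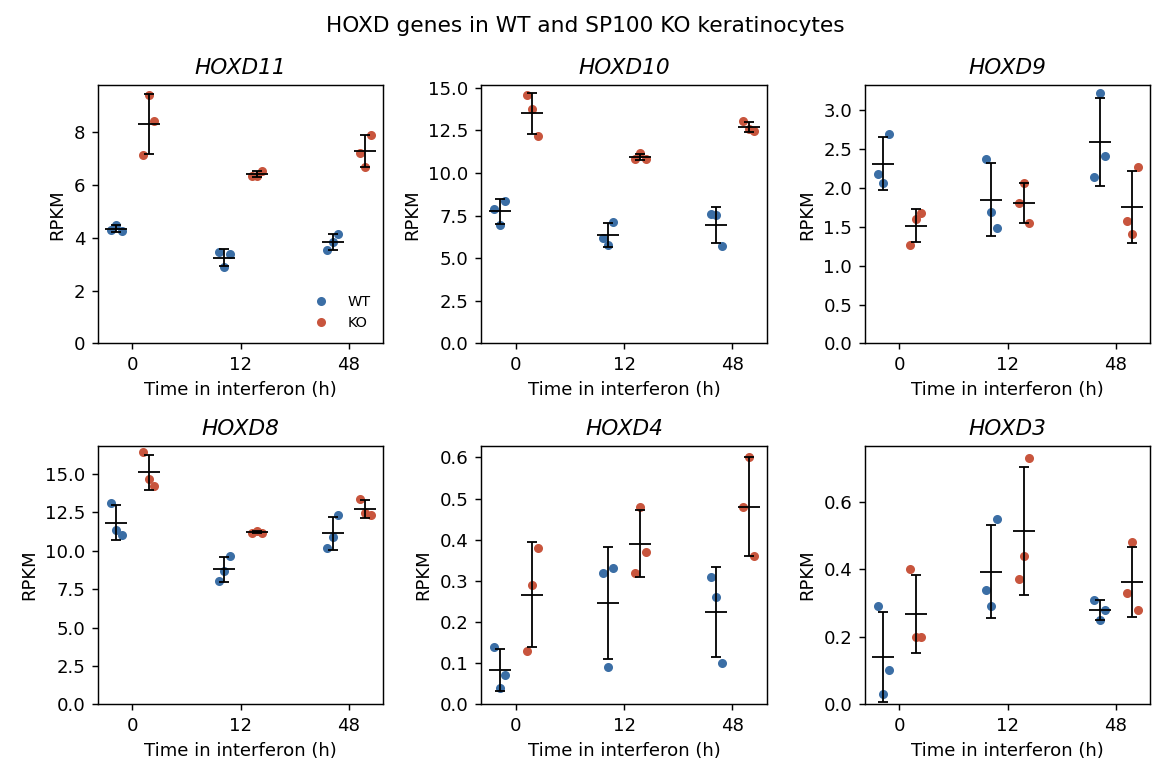
RPKM of the 6 HOXD genes (vertical axes, each from 0) by time in interferon in hours (horizontal axes). Points are libraries, WT in blue and KO in red, with the group mean and SD in black; the KO points of HOXD11 and HOXD10 lie above all WT points, and those of HOXD9 do not.

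The members' proportions also differed between the genotypes. HOXD8 RPKM was 1.54, 1.39 and 1.65 times HOXD10 RPKM in WT cells at 0, 12 and 48 h, and 1.12, 1.03 and 1.00 times in KO cells (means of within-library ratios). Single WT libraries spanned 1.29 to 2.15 and single KO libraries 0.990 to 1.17, without overlap. HOXD11 was at 0.564, 0.511 and 0.564 times HOXD10 in WT and at 0.621, 0.585 and 0.572 times in KO, so these neighbours kept closer proportions. HOXD9 was at 0.297, 0.295 and 0.376 times HOXD10 in WT and at 0.114, 0.165 and 0.138 times in KO. These ratios use the values that chose the members and carry no test. Exon bases are shared between HOXD11 and HOXD10 on the same strand, 21.4% of those of HOXD11 and 16.8% of those of HOXD10 in GENCODE release 29. How reads there were assigned is not given in the sources used here, so the 2 genes' values are not fully separate. In these bulk libraries, fewer cells expressing a gene and less of its RNA per cell cannot be told apart.

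Set against the tested genes, the KO minus WT difference of HOXD10 was at or above that of 99.3%, 99.2% and 99.4% of genes at 0, 12 and 48 h. For HOXD11 these shares were 99.5%, 99.5% and 99.4%. HOXD8 stood at 96.6%, 96.5% and 88.2%, and HOXD9 at 3.18%, 41.8% and 3.60%. The median difference over all genes was 0.02, 0.01 and 0.01. These ranks use the contrast that chose the members, so nothing is read from them. The tested members ran from moderate to low expression. Of tested genes, 49.6% had a lower mean RPKM than HOXD8, 44.2% than HOXD10, 31.3% than HOXD11 and 15.1% than HOXD9.

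Genes around the cluster were tested to see how far the difference reached. A list of 17 flanking genes on both sides had 14 in the table and 11 tested. None of the 11 passed the test at any time in limma (adjusted p under 0.05), where 4.89%, 3.62% and 4.19% of all genes did at 0, 12 and 48 h. Unadjusted p was under 0.05 for 2, 1 and 0 of them, and for 18.1%, 17% and 16.4% of all genes. The nearest tested gene on the 5′ side, LNPK, which shapes junctions of the endoplasmic reticulum, had untreated means of 10.8 ± 1.03 RPKM (WT) and 11.8 ± 0.326 RPKM (KO; SD, n = 3). On the 3′ side the nearest tested gene was HAGLROS, with log2 differences of 0.06, 0.07 and 0.11 at 0, 12 and 48 h (limma adjusted p = 0.891, 0.879 and 0.784). Farther out MTX2, a subunit of the mitochondrial sorting and assembly machinery, was at 47.8 ± 2.79 and 53.3 ± 1.29 RPKM untreated. Its log2 difference there was 0.16 (limma unadjusted p = 0.0414, adjusted p = 0.25).

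A pair of non-coding genes that were not on this list, named after their values were seen, did differ. LINC01116, beyond MTX2 on the 3′ side, was at 11.4 ± 0.673, 11.4 ± 0.725 and 11.7 ± 0.207 RPKM in WT cells at 0, 12 and 48 h (SD, n = 3). In KO cells it was at 16.5 ± 1.48, 18.3 ± 1.96 and 16.2 ± 0.625 RPKM (SD, n = 3), and all 9 KO libraries lay above all 9 WT libraries. Its log2 difference was 0.49, 0.63 and 0.43 (SE 0.0762, limma adjusted p = 0.000858, 0.000104 and 0.00276). LINC01116 passed at each time in all 25 alternative fits. MTX2, between it and the cluster, did not pass. HOXD-AS2, an antisense transcript inside the cluster near HOXD8, had untreated means of 1.09 ± 0.168 RPKM (WT) and 2.17 ± 0.176 RPKM (KO; SD, n = 3). Its log2 difference was 0.60 untreated (limma adjusted p = 0.0376), 0.39 at 12 h (adjusted p = 0.208) and 0.14 at 48 h (adjusted p = 0.745). The untreated call was lost on leaving out any one of the 6 untreated libraries, with adjusted p up to 0.145. Whether the counting used strand is not stated, so HOXD-AS2 reads and those of genes on the other strand cannot be told apart with certainty.

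**Figure D2:**
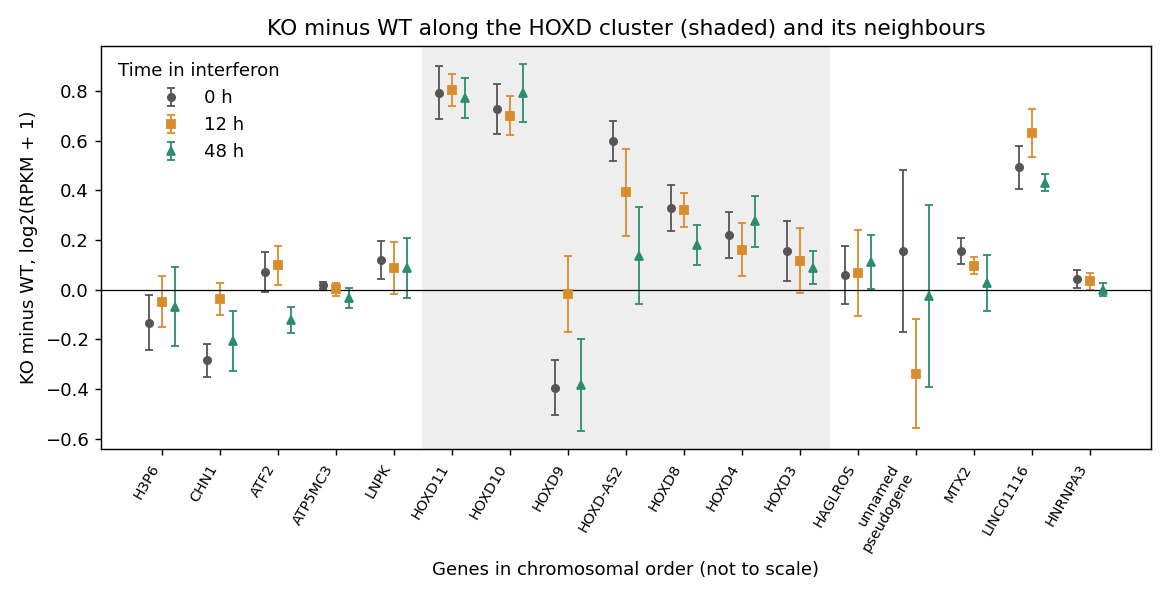
KO minus WT difference on the log2(RPKM + 1) scale (vertical axis) for genes in chromosomal order, not to scale (horizontal axis), with the HOXD cluster shaded. Symbols are 0, 12 and 48 h and bars are the standard error from the 3 libraries of each of the 2 groups; HOXD11 and HOXD10 stand from 0.70 to 0.80, HOXD9 at or below 0, and LINC01116 is set apart from the cluster by MTX2.

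The HOXC cluster, on another chromosome, was compared in the same way. It had 7 of 9 genes in the table and 6 tested. In HOXC, 0 of 6 genes passed at each time (limma, with 0, 0 and 1 at an unadjusted p under 0.05). Over all genes 4.89%, 3.62% and 4.19% passed at 0, 12 and 48 h. Unadjusted p was under 0.05 for 18.1%, 17% and 16.4% of all genes. With 6 genes nothing is read from these counts. Median log2 differences between KO and WT were -0.10, 0.06 and -0.08 in HOXC, against 0.02, 0.01 and 0.01 over all genes. In untreated WT cells HOXC10 (19.5 RPKM) stood above HOXD8, and HOXC13 (5.77 RPKM) stood between HOXD10 and HOXD11. HOXB genes were not analysed here.

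**Figure D3:**
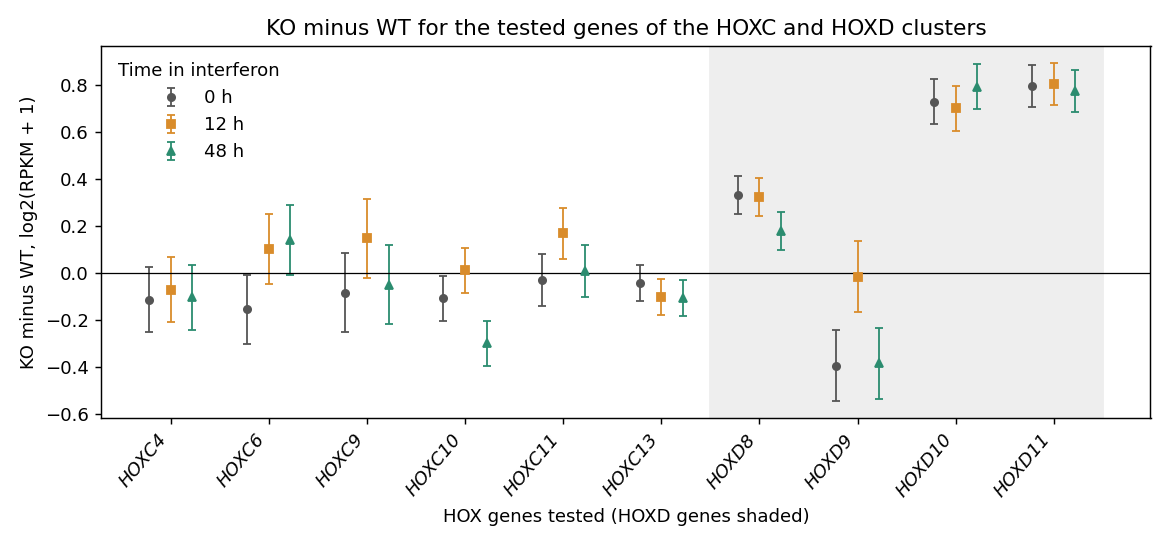
KO minus WT difference on the log2(RPKM + 1) scale (vertical axis) for the 6 HOXC and 4 HOXD genes tested (horizontal axis, HOXD shaded). Symbols are 0, 12 and 48 h and bars are the standard error of the fit. HOXD10 and HOXD11 lie from 0.70 to 0.80. No HOXC value passed the test, where 4.89%, 3.62% and 4.19% of all genes did.

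Interferon gave a test that did not use the contrast between genotypes. After 12 h, HOXD11, HOXD10 and HOXD8 fell in both genotypes and HOXD9 did not pass the test. HOXD8 fell by 0.39 on the log2(RPKM + 1) scale in WT (SE 0.0806, limma adjusted p = 0.00102) and by 0.40 in KO (adjusted p = 0.000731). HOXD11 fell by 0.33 in WT (SE 0.0892, limma adjusted p = 0.0064) and by 0.32 in KO (adjusted p = 0.00702). HOXD10 fell by 0.25 in WT (SE 0.0957, limma adjusted p = 0.0441) and by 0.28 in KO (adjusted p = 0.025). HOXD9 differed by -0.22 in WT (SE 0.151, limma adjusted p = 0.249) and by 0.16 in KO (adjusted p = 0.424).

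Lower levels at 12 h were common: 29.8% of tested genes fell in WT and 32.8% in KO, and the median change over all genes was -0.09 in each. In numbers, WT had 2005 genes that rose against 3959 that fell, and KO had 2123 against 4362. Rescaling the libraries by the median of ratios removed that shift of the median and left 2895 rising and 2712 falling in WT, and 3155 and 3040 in KO. Under that scaling HOXD8 (-0.30 in each genotype, limma adjusted p = 0.00529 and 0.00518) and HOXD11 (-0.26 and -0.23, adjusted p = 0.0275 and 0.045) still passed. HOXD10 did not (-0.17 and -0.18, limma adjusted p = 0.179 and 0.143). The WT call of HOXD10 was lost in 15 of 25 alternative fits, among them those without WT 0 h replicate 1 or 3, WT 12 h replicate 1 or 2, KO 0 h replicate 2, or any 1 library of KO 12 h or KO 48 h. Its KO call was lost in 5 of 25, those without KO 0 h replicate 1 or 2 and KO 12 h replicate 1 or 3 among them. HOXD8 and HOXD11 kept their calls in all 25 in both genotypes.

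By 48 h, 0 of 4 members differed from 0 h in either genotype (limma, with 0 in WT and 1 in KO at an unadjusted p under 0.05), where 12.8% and 13.3% of all genes did. The KO gene was HOXD8 (-0.23, limma adjusted p = 0.0747). Over all genes, unadjusted p was under 0.05 for 27.2% in WT and 26.3% in KO. From 12 to 48 h HOXD8 rose in WT by 0.31 (limma adjusted p = 0.007), 1 of 4 members where 24.6% of genes rose. In KO 0 of 4 passed between 12 and 48 h (limma, with 0 at an unadjusted p under 0.05), against 41.7% of genes in either direction. Unadjusted p was under 0.05 for 49% of all genes there. The KO changes from 12 to 48 h were 0.17 for HOXD8, 0.20 for HOXD10, 0.16 for HOXD11 and -0.03 for HOXD9. Their limma adjusted p was 0.109, 0.111, 0.176 and 0.878. In WT the other changes were 0.11 for HOXD10, 0.19 for HOXD11 and 0.33 for HOXD9 (limma adjusted p = 0.409, 0.111 and 0.0974).

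Whether the response to interferon differed between the genotypes was tested by the interaction term, which shares the untreated libraries with the KO against WT difference at 0 h. None of the 4 members passed at 12 or 48 h (limma, with 0 and 0 at an unadjusted p under 0.05), where 0.0753% and 0.0828% of all genes did. Unadjusted p was under 0.05 for 5.75% and 6.22% of all genes. At 12 h the 95% interval of the interaction on the log2 scale was -0.26 to 0.28 for HOXD11, -0.31 to 0.26 for HOXD10, -0.25 to 0.23 for HOXD8 and -0.08 to 0.83 for HOXD9. At 48 h it was -0.29 to 0.25 for HOXD11, -0.22 to 0.35 for HOXD10, -0.39 to 0.09 for HOXD8 and -0.44 to 0.46 for HOXD9.

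**Figure D4:**
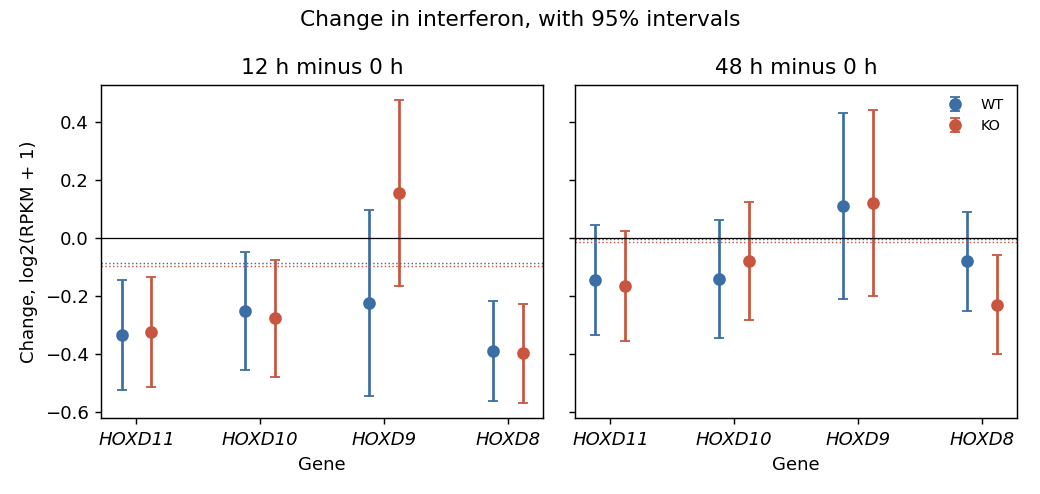
Change from 0 h on the log2(RPKM + 1) scale (vertical axes) of the 4 tested HOXD genes at 12 h (left) and 48 h (right), WT in blue and KO in red. Points are fitted changes with 95% intervals and dotted lines are the median over all genes tested; at 12 h the points of HOXD11, HOXD10 and HOXD8 lie from -0.40 to -0.25 in both genotypes.

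The HOXC cluster, tested in the same way, had HOXC13, known for its part in hair and nail keratin expression, rise at 12 h in WT by 0.28 (limma adjusted p = 0.00758) and in KO by 0.22 (adjusted p = 0.0282). HOXC10 fell by 0.33 in WT (limma adjusted p = 0.0113) and differed by -0.21 in KO (adjusted p = 0.0851). HOXC9 differed by -0.38 in WT (limma adjusted p = 0.0807) and by -0.15 in KO (adjusted p = 0.506). Of 6 HOXC genes tested, 1 rose and 1 fell in WT, where 15.1% and 29.8% of all genes did. In KO 1 rose and 0 fell, where 16% and 32.8% of all genes did. With 6 genes nothing is read from these counts. The HOXC13 call in KO was lost without KO 0 h replicate 2 or 3 or KO 12 h replicate 2 or 3, and the HOXC10 call in WT under median-of-ratios scaling.

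Genes of the pathways that act on HOX clusters were compared between KO and WT from lists. Of 6 tested PBX, MEIS and PKNOX cofactors, 0 passed at each time (limma, with 0, 0 and 2 at an unadjusted p under 0.05). Of 28 Polycomb genes, 0 passed at 0 and 12 h (limma, with 1 and 4 at an unadjusted p under 0.05), and at 48 h 1 was higher and 1 lower. Of 15 Trithorax and H3K27 demethylase genes 1 was higher at 0 h, and of 10 CTCF and cohesin genes 1 was higher at 12 h. Over all genes 4.89%, 3.62% and 4.19% passed, and 18.1%, 17% and 16.4% had an unadjusted p under 0.05. With 1 gene a list or direction nothing is read from these counts. The genes, named after their values were seen, were EZH1 (0.31, limma adjusted p = 0.0345) and CBX6 (-0.45, adjusted p = 0.00698) at 48 h, ASH2L (0.18, adjusted p = 0.0304) at 0 h and SMC3 (0.17, adjusted p = 0.0262) at 12 h. The calls of EZH1, ASH2L and SMC3 were each lost on leaving out a single library: EZH1 without WT 48 h replicate 1 or 3 or KO 48 h replicate 1 or 3, ASH2L without any WT 0 h library or KO 0 h replicate 1 or 2, and SMC3 without WT 12 h replicate 1 or 3 or KO 12 h replicate 1.

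Among 10 tested genes of the retinoic acid pathway, 2 were higher in KO cells at 0 h and 2 at 48 h (limma). At 12 h 1 was higher and 1 lower. Over all genes 4.89%, 3.62% and 4.19% passed in either direction at 0, 12 and 48 h. Those higher were 2.82%, 1.6% and 2.03%, and 2.02% were lower at 12 h. At each time 4 of the 10 had an unadjusted p under 0.05 in limma, against 18.1%, 17% and 16.4% of all genes. With 10 genes nothing is read from these counts. CRABP2, which carries retinoic acid to its nuclear receptors, was higher in KO cells at all 3 times. Its untreated means were 19.7 ± 1.96 RPKM (WT) and 32.9 ± 3.44 RPKM (KO; SD, n = 3). The log2 difference was 0.71, 0.56 and 0.53 at 0, 12 and 48 h (SE 0.105, limma adjusted p = 0.000584, 0.00538 and 0.00681). ALDH1A2, which makes retinoic acid, was higher at 0 h (0.64, limma adjusted p = 0.0102) and at 48 h (0.51, adjusted p = 0.0456). RARG, a retinoic acid receptor, was lower at 12 h (-0.23, limma adjusted p = 0.0384). At 0 h the receptor genes RXRA and RARG differed by -0.22 and -0.17 (limma adjusted p = 0.117 and 0.125). RARA and RXRB differed by 0.02 and -0.01 at 0 h (limma adjusted p = 0.913 and 0.957). ALDH1A2 and the receptor genes were named after their values were seen. The part of this pathway in the HOXD values was not tested. The ALDH1A2 call at 48 h was lost in 18 of 24 alternative fits and the RARG call in 15 of 25, while ALDH1A2 at 0 h was kept.

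The tested genes outside the cluster whose log2 levels followed those of HOXD10 most closely over the 18 libraries were SLCO1B3 (r = 0.957), UCA1 (0.957), EDA (0.947), HMGN3 (0.941) and FUCA2 (0.940). HOXD11 had the same 5 genes, with r of 0.939 to 0.951. The most opposed were C3orf14 (r = -0.961), RHOB (-0.941) and IQCA1 (-0.938) for HOXD10, and TGFBI (-0.962), DNAJA4 (-0.958) and TGM2 (-0.957) for HOXD11. These coefficients are descriptions over libraries that fall into 2 genotypes, so a difference between the lines enters each of them. Within the 9 WT libraries the r of the 5 genes with HOXD10 ran from 0.084 to 0.729, and within the 9 KO libraries from 0.425 to 0.880. Of the opposed genes, IQCA1 had r of -0.532 with HOXD10 within WT but 0.522 within KO. IQCA1 was low, at 0 to 2.18 RPKM with 4 of the 18 libraries at 0, so nothing is read from that change of sign. SLCO1B3 (0 to 2.78 RPKM), EDA (0.15 to 1.62), DNAJA4 (0.11 to 3.62) and TGM2 (0.25 to 3.97) were low as well. SLCO1B3 encodes a transporter of organic anions, EDA the ligand ectodysplasin A, HMGN3 a nucleosome-binding protein and FUCA2 a fucosidase, and UCA1 is a long non-coding RNA.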

How the data were processed

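RNA was measured in 18 libraries. The authors deposited RPKM values per Ensembl gene; the submitters' processing notes name cutadapt, STAR 2.6.1, RSEM 1.3.0, limma 3.50.3 and hg19. The annotation, the strand setting and read totals are not given in the sources used here, so depth and counting error are unknown. Groups came from the sample labels. Values were taken as log2(RPKM + 1). The 13280 genes that reached 1 RPKM in 3 or more libraries entered a cell-means model over all libraries in limma 3.58.1 (R 4.3.3), with trended variances and Benjamini-Hochberg adjustment over all genes (threshold 0.05). P-values measure the spread between biological replicates of 1 line per genotype. The code was tested on simulated data. Order along the chromosome and exon overlap came from GENCODE release 29, and promoters from RefSeq on GRCh38.p14. Named genes were all HOXD genes, listed genes that passed at all 3 times, HOXC and flanking genes that passed at any time, and the 5 most and 3 least similar genes. The HOXA comparison is not reported here. Members and lists were chosen with earlier results of these data known. Alternatives were another pseudocount, filter, scaling, variance model or set of libraries, a replicate block, and each library left out.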

Additional observations from a re-analysis of the deposited data

How the results depend on the processing

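The direction of the KO minus WT difference of HOXD8, HOXD10 and HOXD11 was the same in all 25 alternatives at each time. HOXD10 ranged from 0.64 to 0.87 and HOXD11 from 0.71 to 0.96 on the log2 scale over the 3 times; a pseudocount of 0.1 gave the largest HOXD11 values at each time. HOXD9 at 12 h ranged from -0.11 to 0.11. For WT at 48 h against 12 h, leaving out single libraries gave 1 to 2 HOXD genes (2 without WT 12 h replicate 1, where HOXD9 also passed). For KO at 48 h against 12 h, the 0 HOXD genes became 1, HOXD10, with only the libraries of the comparison. The causes were not tested. Between 12 and 48 h, 35.9% of all genes passed in WT and 41.7% in KO in the main fit. The KO minus WT call of CRABP2 at 12 h was lost with only the libraries of the comparison (limma adjusted p = 0.0545).

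Replicate numbers were not treated as pairing the libraries. Same-numbered libraries of different groups had correlated deviations above 0.1 in 2 of 45 pairs of libraries, with r from -0.097 to 0.157. These values show no strong shared deviation but cannot tell whether same-numbered libraries were handled together. With the number as a replicate block, the HOXD genes that fell at 12 h in WT went from 3 to 2, HOXD10 having a limma adjusted p of 0.0544, and the KO count was 3. The untreated calls of HOXD-AS2 and ASH2L were lost as well. In the main fit, 29.8% of all genes fell at 12 h in WT and 32.8% in KO. HOXD4 and HOXD3 stayed under 1 RPKM in all 18 libraries and were not tested; read totals are unknown.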

Other observations

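HOTAIRM1, a long non-coding gene in the HOXA cluster named after its values were seen, fell at 12 h in interferon in both genotypes. It averaged 7.72 ± 3.90, 2.61 ± 0.678 and 4.69 ± 0.0764 RPKM in WT cells at 0, 12 and 48 h (SD, n = 3). In KO cells HOTAIRM1 was at 6.69 ± 1.09, 3.02 ± 0.539 and 6.68 ± 1.87 RPKM (SD, n = 3). It fell by 1.19 on the log2(RPKM + 1) scale at 12 h in WT (SE 0.248, limma adjusted p = 0.00108) and by 0.94 in KO (adjusted p = 0.00544), and passed in all 25 alternatives. Other long non-coding genes did not all do so. HOTAIR, at a mean of 0.967 RPKM over the libraries, differed by -0.25 in WT (limma adjusted p = 0.275). In KO it differed by -0.45 and passed (limma adjusted p = 0.0479). LINC01116 differed by 0.004 in WT (limma adjusted p = 0.974) and 0.14 in KO (adjusted p = 0.14). HAGLROS, the next tested gene past HOXD3, differed by -0.34 in WT (SE 0.147, limma adjusted p = 0.0704) and -0.33 in KO (adjusted p = 0.0732). HOXD-AS2 differed by 0.18 in WT (limma adjusted p = 0.383) and -0.03 in KO (adjusted p = 0.897). In the HOXD cluster HAGLR, too low to test, was at 0.813 ± 0.121, 0.257 ± 0.0981 and 0.807 ± 0.0808 RPKM in WT (SD, n = 3). Its 12 h libraries in WT, at 0.2 to 0.37 RPKM, lay below the untreated ones, at 0.7 to 0.94 RPKM. The same held in KO, at 0.3 to 0.71 RPKM against 0.73 to 0.95 RPKM untreated. Among tested genes, 35.2% in WT and 36.8% in KO were separate and lower at 12 h. In KO cells HAGLR was at 0.867 ± 0.119, 0.55 ± 0.219 and 0.763 ± 0.409 RPKM (SD, n = 3).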
